A study of Danio rerio with 6 samples.

Results

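The genes described here are mespaa, mespab, mespba, mespbb, ripply1, ripply2, tcf15, meox1, uncx4.1 and tbx18, which act where the presomitic mesoderm of the zebrafish (Danio rerio) is cut into somites. They were taken by name from the deposited tables, and all 10 were found, each in a single row, among 32520 genes. RNA-seq of polyadenylated RNA was carried out on caudal tissue cut behind the most recently formed somite of embryos at 16 hours post fertilisation. The 3 sall4 morphant libraries came from embryos injected with a morpholino against sall4, an antisense oligomer that blocks the making of a protein, aimed here at a zinc finger transcription factor gene. Of the 3 control libraries, control 1 had received a scrambled morpholino, and the embryos of controls 2 and 3 had no injection. With only 1 injected control, an effect of injection and one of targeting sall4 were poorly separated. A morpholino is not restricted to a cell type, and no strain, allele or number of embryos per library is given in the labels.

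As background, unsegmented mesoderm leaves the tailbud posteriorly, and its anterior end is divided at regular intervals into somites. In the anterior presomitic mesoderm the T-box factor Tbx6 switches on the mesp genes, which encode basic helix-loop-helix factors that mark the next segment border and the rostral part of each somite. Tbx6 also switches on the ripply genes, whose products recruit Groucho corepressors and bring about the removal of Tbx6 protein, so that the presomitic programme ends. Of the other genes, tcf15 encodes paraxis, a basic helix-loop-helix factor of the epithelial somite, and meox1 a homeobox factor of the somite. The homeobox gene uncx4.1 marks the caudal part of each somite and the T-box gene tbx18 its rostral part. The comparison of morphants with controls asks whether the RNA levels of these genes differ when sall4 is targeted.

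Total counts ranged from 18626513 to 42423495 per library, and the lowest count of any of the 10 genes in any library was 46, so counting error was small for all but uncx4.1 and tbx18. The sall4 transcript stood at 974.5, 1337 and 1390 CPM (counts scaled to the library size) in morphants 1, 2 and 3, against 1110, 1312 and 1347 CPM in controls 1, 2 and 3, and its level does not check the injection, since a morpholino need not lower its target's RNA. The defining markers of tailbud and presomitic mesoderm (tbxta, tbx16, msgn1, tbx6 and cdx4) were present in every library and summed to 5066 to 12870 CPM in morphants and 6730 to 8792 CPM in controls. The genes listed for formed somite and muscle were myod1, myf5, myog, actc1b, desma and mylpfa. They summed to 1861, 527.8 and 1183 CPM in morphants 1, 2 and 3, against 567.7, 1030 and 708.5 CPM in controls 1, 2 and 3. Most of each sum was myf5, at 1487, 363.3 and 825.2 CPM in morphants 1, 2 and 3. Whether the myf5 RNA came from formed somites or from unsegmented mesoderm was not tested. The genes did not move together, since actc1b had all morphants above all controls and desma had all below. Blood and vessel markers summed to 1357, 364.3 and 620.0 CPM in morphants 1, 2 and 3. In controls 1, 2 and 3 they summed to 143.6, 341.2 and 353.4 CPM. Of these 8, 5 had all morphants above all controls, against 7.77% of all tested genes. These were gata1a and the globin genes hbae1.1, hbbe1.1, hbbe2 and hbae5, whereas kdrl, fli1a and tal1 overlapped. Neural tube markers summed to 876.6, 508.8 and 716.8 CPM in morphants 1, 2 and 3. In controls 1, 2 and 3 they summed to 982.2, 956.5 and 961.0 CPM. Of these 6, 4 had all morphants below all controls, against 9.18% of all tested genes. The part of either list in the results was not tested. A list of genes chosen for structures in front of the dissected region had counts in every library for 3 of 8 genes. None was at 0 in all libraries. The 8 genes summed to 15.9 to 32.6 CPM in morphants and 6.28 to 22.6 CPM in controls. Most of each sum was pax2a, at 13.2 to 25.9 CPM in morphants and 4.88 to 20.4 CPM in controls. Whether the pax2a RNA came from such structures was not tested, so the sums do not measure carry-over of them. The labels name no clutches, so the p-values below cover the spread among these libraries alone, and some of that spread may be technical.

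Levels per length, as the deposited FPKM (fragment counts scaled by gene length and by library), placed the 10 genes in the same order of means in morphants and in controls. The highest was tcf15, at 387.3 ± 218.6 FPKM in morphants and 249.9 ± 58.4 FPKM in controls (SD, n = 3 each). Then came ripply2 (109.5 ± 55.6 in morphants and 89.9 ± 17.3 in controls), mespab (91.7 ± 37.5 in morphants and 86.4 ± 27.3 in controls) and ripply1 (66.9 ± 31.1 in morphants and 83.3 ± 15.6 in controls). These 3 overlapped as neighbours in both groups, and meox1 followed at 48.1 ± 5.53 FPKM in morphants and 49.9 ± 11.1 FPKM in controls. Below it stood mespbb (37.0 ± 16.7 FPKM in morphants and 31.5 ± 7.44 FPKM in controls), mespaa (25.6 ± 8.17 in morphants and 14.89 ± 1.099 in controls) and mespba (16.1 ± 7.50 in morphants and 9.89 ± 1.12 in controls). From ripply1 down to uncx4.1, each gene in the control libraries was separate in range from the next, whereas in the morphant libraries neighbours overlapped from ripply2 down to mespba. Lowest were uncx4.1, at 3.33 ± 1.04 FPKM in morphants and 1.69 ± 0.33 FPKM in controls, and tbx18, at 2.64 ± 0.81 FPKM in morphants and 1.16 ± 0.23 FPKM in controls, and they overlapped in both groups.

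**Figure D1:**
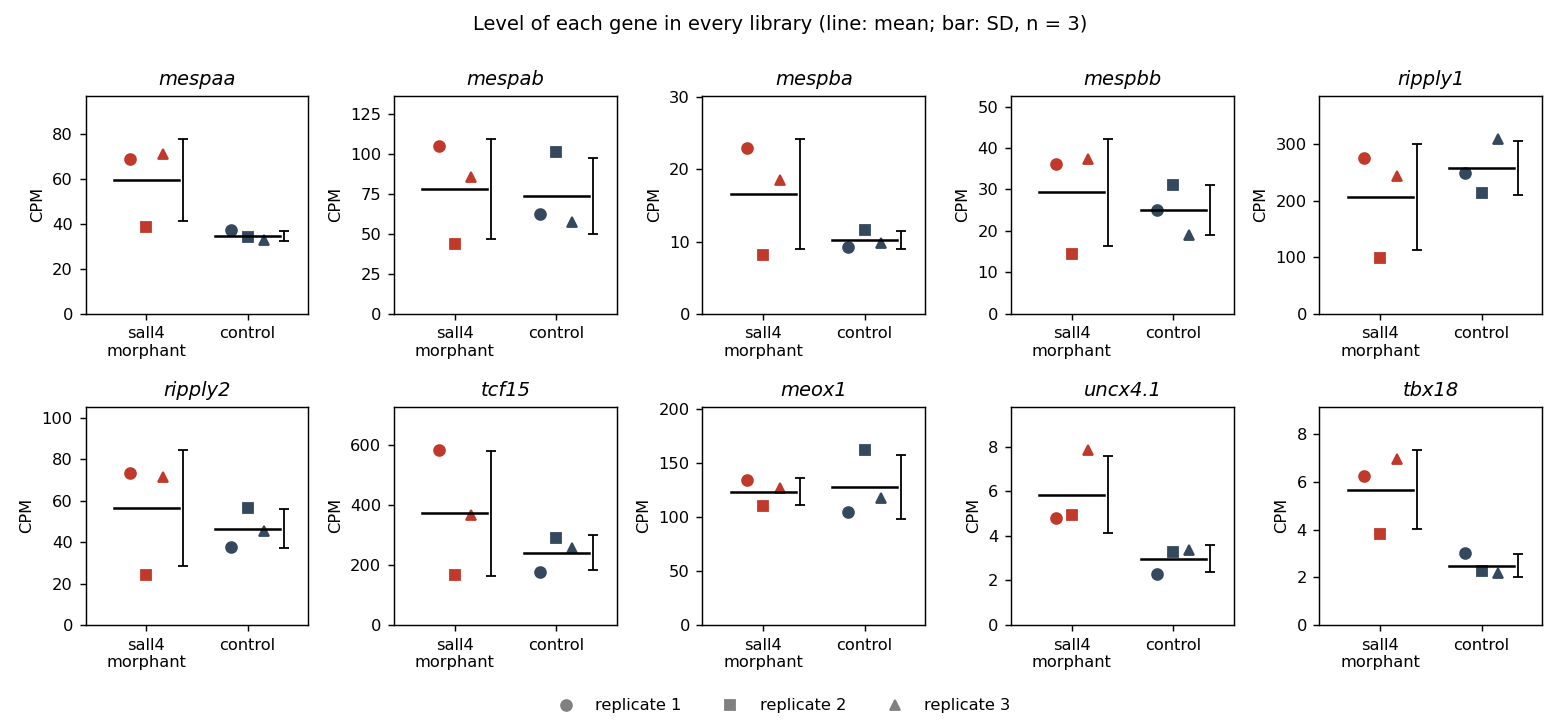
CPM of each of the 10 genes in the 3 sall4 morphant libraries (red) and the 3 control libraries (dark blue), with marker shape for the replicate number, a line for the group mean and a bar for the SD. The morphant square (morphant 2) is the lowest of the 6 points for 6 genes, and all morphants lie above all controls for mespaa, uncx4.1 and tbx18.

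Across all 10 genes, none passed the threshold of an adjusted p of 0.05 by edgeR, a test in which 0.0281% of all 17803 tested genes passed (5 genes, each higher in morphants). By DESeq2 0 of the 10 passed as well, against 1.56% of all genes it tested. At an unadjusted p under 0.05, 3 of the 10 genes stood higher by edgeR, against 4.47% of all tested genes (9.66% in either direction), and the same 3 did by DESeq2, against 8.69% of its genes in either direction. These were mespaa, uncx4.1 and tbx18, and they were also the 3 whose morphant values all lay above all control values, a pattern seen in 7.77% of all tested genes. No gene of the 10 had all morphants below all controls, against 9.18% of all tested genes. The log2 fold change, morphant minus control, was above 0 for 8 of the 10 genes, against 58.2% of all tested genes. In the 18 other fits this number ranged from 7 to 10. It was 7 with library totals, non-injected controls only, without control 3, without morphant 1 and with the length trend, described below, removed. The median log2 fold change was 0.45 over the 10 genes and 0.12 over all tested genes. Without morphant 1 these medians were 0.11 and 0.05, and without morphant 2 they were 0.79 and −0.04. With the length trend removed from all libraries they were 0.25 and 0.098. In these pieces of tissue, fewer cells of a type and less RNA per cell cannot be told apart.

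Among the mesp genes, mespaa (ENSDARG00000017078) stood apart between the groups. It was measured at 69.0, 38.5 and 70.8 CPM in morphants 1, 2 and 3, against 37.1, 34.2 and 32.7 CPM in controls 1, 2 and 3. Morphants 1 and 3 lay well above the controls, and morphant 2 lay just above the highest of them. The log2 fold change was 0.78 (SE 0.30, 95% interval 0.08 to 1.48, edgeR adjusted p = 0.47), which over all genes did not pass. Without morphant 2 it was 0.99 (SE 0.19, adjusted p = 0.029), a fit in which 4.09% of all tested genes passed as higher and 8.46% in either direction. The median of all tested genes in that fit was −0.04.

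Its chromosomal neighbour mespba (ENSDARG00000030347) was measured at 23.0, 8.18 and 18.5 CPM in morphants 1, 2 and 3, against 9.27, 11.7 and 9.78 CPM in controls 1, 2 and 3. Here morphants 1 and 3 were above all controls and morphant 2 was below all of them, so the groups overlapped. Between the groups the log2 fold change was 0.69 (SE 0.40, 95% interval −0.23 to 1.61, edgeR adjusted p = 0.60). Without morphant 2, the lowest library for this gene, it was 1.00 (SE 0.25, edgeR adjusted p = 0.045), and without morphant 1 it was 0.39. The fit without morphant 2 passed 4.09% of all tested genes as higher and 8.46% in either direction. In zebrafish the mespb products are known for giving rostral identity to the somite.

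The other pair of mesp genes showed smaller differences between the groups. For mespab (ENSDARG00000068761) the values were 104.8, 43.8 and 85.6 CPM in morphants 1, 2 and 3, against 62.5, 101.2 and 57.5 CPM in controls 1, 2 and 3. For mespbb (ENSDARG00000097947) they were 36.1, 14.4 and 37.3 CPM in morphants 1, 2 and 3, against 25.1, 31.0 and 18.9 CPM in controls 1, 2 and 3. In both genes morphant 2 was the lowest library and the non-injected control 2 was the highest control, and the groups overlapped. The log2 fold changes were 0.08 (SE 0.39, 95% interval −0.80 to 0.97) for mespab and 0.23 (SE 0.40, 95% interval −0.70 to 1.15) for mespbb, with edgeR adjusted p-values of 0.94 and 0.83. The sign for mespab depended on the setting, over a range from −0.18 to 0.38, and with each library left out in turn the value for mespbb was 0.02 to 0.54.

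The more abundant ripply gene by counts, ripply1 (ENSDARG00000054103), was measured at 275.4, 99.2 and 244.6 CPM in morphants 1, 2 and 3, against 249.7, 214.6 and 309.3 CPM in controls 1, 2 and 3. Morphants 1 and 3 lay within the range of the controls, and morphant 2 stood below the lowest control. Its log2 fold change was −0.32 (SE 0.39, 95% interval −1.23 to 0.58, edgeR adjusted p = 0.76), and it was −0.01 (SE 0.22) without morphant 2 and −0.58 without morphant 1. For ripply2 (ENSDARG00000070535) the values were 73.6, 24.0 and 71.2 CPM in morphants 1, 2 and 3, against 37.5, 56.2 and 45.4 CPM in controls 1, 2 and 3. Here morphants 1 and 3 exceeded all controls and morphant 2 was below all of them. The log2 fold change of ripply2 was 0.28 (SE 0.43, 95% interval −0.71 to 1.26, edgeR adjusted p = 0.81), with 0.04 without morphant 1 and 0.62 without morphant 2.

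The somite gene tcf15 (ENSDARG00000067544) was the most abundant per length, at 581.3, 165.6 and 367.8 CPM in morphants 1, 2 and 3, against 176.2, 290.5 and 255.3 CPM in controls 1, 2 and 3. Morphants 1 and 3 were above all controls and morphant 2 was below all of them, while the scrambled control was the lowest control. The difference amounted to a log2 fold change of 0.63 (SE 0.45, 95% interval −0.40 to 1.65, edgeR adjusted p = 0.64), with 0.96 without morphant 2 (adjusted p = 0.053) and 0.15 without morphant 1. In contrast, meox1 (ENSDARG00000007891) varied little among the morphants, at 134.0, 109.8 and 126.3 CPM in morphants 1, 2 and 3. In controls 1, 2 and 3 it stood at 104.8, 161.5 and 117.4 CPM. It was the only gene of the 10 with a smaller SD of log2 CPM in morphants (0.15) than in controls (0.32), and all morphants lay within the range of the controls. The log2 fold change of meox1 was −0.05 (SE 0.27, 95% interval −0.67 to 0.56, edgeR adjusted p = 0.95).

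Both markers of somite polarity were scarce and stood higher in all morphants. The caudal marker uncx4.1 (ENSDARG00000037760) had 73, 126 and 192 counts in morphants 1, 2 and 3, against 47, 67 and 137 counts in controls 1, 2 and 3. Scaled to library size these were 4.80, 4.93 and 7.84 CPM in morphants 1, 2 and 3, against 2.27, 3.30 and 3.35 CPM in controls 1, 2 and 3. The lowest morphant lay above the highest control, and the scrambled control was the lowest library. Its log2 fold change was 0.98 (SE 0.36, 95% interval 0.15 to 1.80), which did not pass over all genes (edgeR adjusted p = 0.44), and no alternative called it (smallest adjusted p 0.067 of 18).

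The rostral marker tbx18 (ENSDARG00000036930) had 95, 98 and 171 counts in morphants 1, 2 and 3, against 63, 46 and 89 counts in controls 1, 2 and 3. These were 6.24, 3.84 and 6.98 CPM in morphants 1, 2 and 3, against 3.04, 2.26 and 2.18 CPM in controls 1, 2 and 3. All morphants exceeded all controls, with morphant 2 the nearest to them. At 1.19 (SE 0.37, 95% interval 0.35 to 2.03, edgeR adjusted p = 0.37) its log2 fold change was the largest of the 10 genes. Without morphant 2 it was 1.39 (SE 0.31, edgeR adjusted p = 0.037), in a fit where 4.09% of all tested genes passed as higher. Of 18 alternatives 2 called tbx18, both of which leave out morphant 2. Its DESeq2 adjusted p was 0.16.

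**Figure D2:**
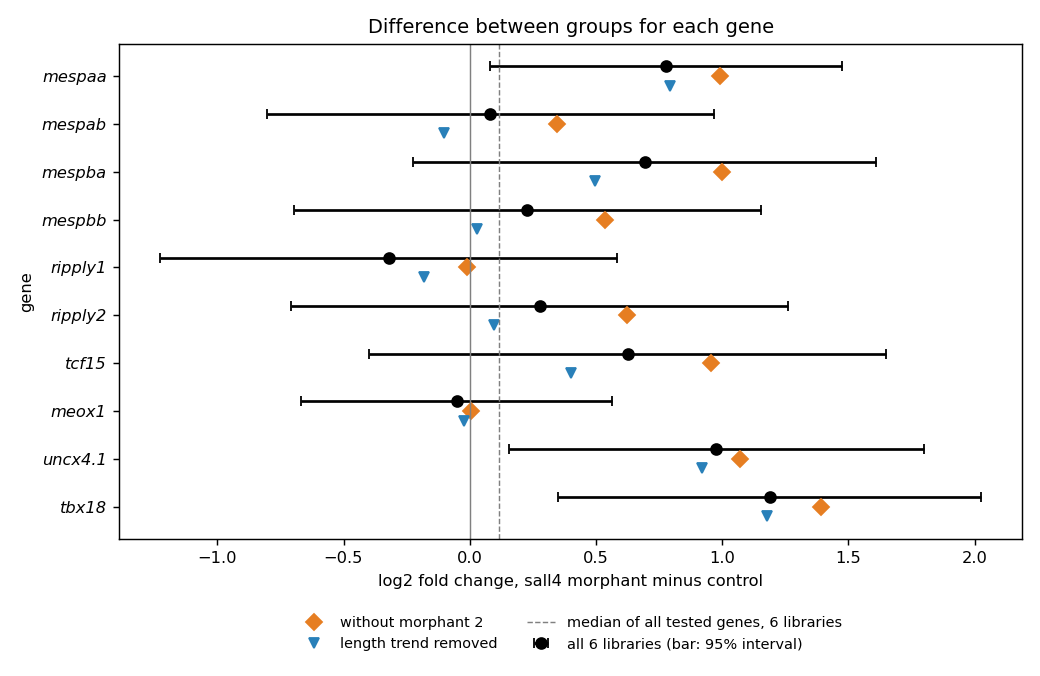
Log2 fold change (sall4 morphant minus control) of each gene from all 6 libraries with its 95% interval, beside the value without morphant 2 and the value with the length trend removed. The intervals of mespaa, uncx4.1 and tbx18 lie above 0, those of the other 7 genes include 0, and the dashed line is the median of all tested genes, 0.12.

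Morphant 2 differed from the other morphants for most of the 10 genes. It was the lowest of all 6 libraries for 6 of them (mespab, mespba, mespbb, ripply1, ripply2 and tcf15), against 28.2% of all tested genes. The mean of the 6 mesp and ripply genes, as log2 CPM around each gene's mean over the libraries, was 0.58, −0.75 and 0.46 in morphants 1, 2 and 3, against −0.18, 0.08 and −0.19 in controls 1, 2 and 3. For the 4 somite genes it was 0.54, −0.15 and 0.56 in morphants 1, 2 and 3, against −0.50, −0.14 and −0.31 in controls 1, 2 and 3. In the mean of the mesp and ripply genes morphants 1 and 3 lay above all controls and morphant 2 below all of them, as they did singly for mespba, mespbb and ripply2 but not for mespaa, mespab and ripply1. The SD of log2 CPM was larger in morphants than in controls for 9 of the 10 genes, with a median of 0.72 in morphants and 0.30 in controls. Over all tested genes it was larger in morphants for 79.5%, with medians of 0.59 in morphants and 0.25 in controls. Among the morphants, the summed markers of 6 of the 7 cell type lists stood highest in morphant 1 and lowest in morphant 2. Epidermis was the exception. Abundant genes weighed most in the sums, such as msgn1 at 8006, 2141 and 4301 CPM in morphants 1, 2 and 3. Of the morphants, morphant 2 was instead highest for shha, col2a1a, foxa2, sox19a, elavl3, desma and kdrl. The part of these lists in the levels of the 10 genes was not tested.

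**Figure D3:**
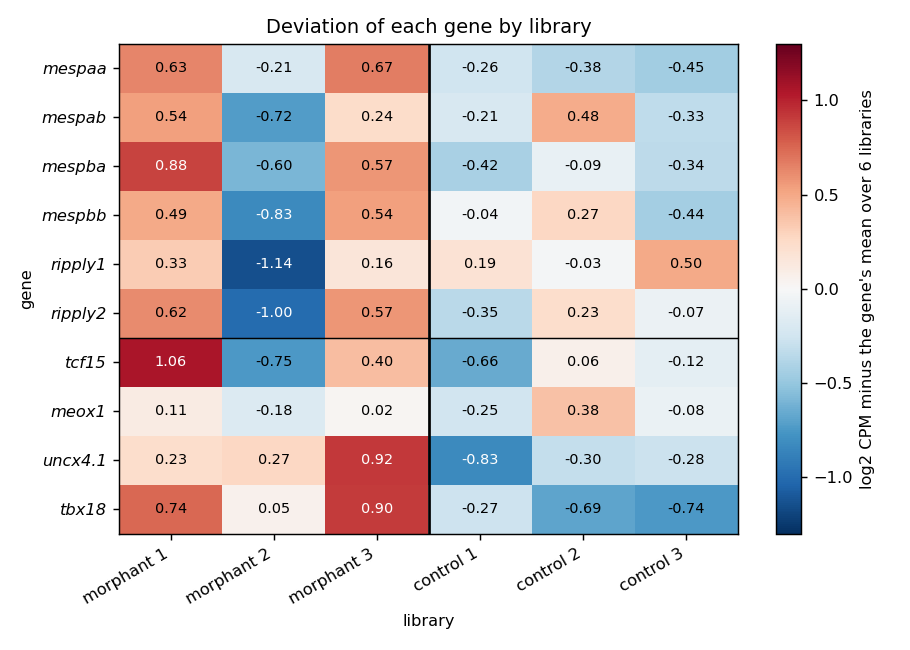
Deviation of log2 CPM from each gene's mean over the 6 libraries, by gene (rows) and library (columns, morphants left of the black line). For the mesp and ripply genes morphant 2 is blue in all 6 rows, from −0.21 for mespaa to −1.14 for ripply1, and morphants 1 and 3 are red in all 6.

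Gene length moved with these values. Across all tested genes, long genes were low in morphants 1 and 3 and high in morphant 2, with Spearman correlations of −0.42, −0.28 and 0.43 between deviation and relative length in morphants 1, 3 and 2, and of 0.21, −0.01 and 0.04 in controls 1, 2 and 3 (genes are not independent replicates). Of the 10 genes, 6 were shorter than the median gene, from 0.27 of its length for ripply2 to 0.93 for uncx4.1, and 4 were longer, up to 1.64 times for ripply1. At the length of mespab the trend of all genes stood at 0.48, −0.44 and 0.17 in morphants 1, 2 and 3, and mespab itself at 0.54, −0.72 and 0.24. In morphant 2 ripply1 lay at −1.14 where the trend for its length was 0.26. For mespaa the trend was −0.04, 0.10 and −0.03 in morphants 1, 2 and 3, and the gene itself stood at 0.63, −0.21 and 0.67.

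With the length trend removed from all libraries, the log2 fold changes were 0.79 for mespaa, 0.92 for uncx4.1 and 1.18 for tbx18, within 0.06 of those without this step, and edgeR adjusted p-values were 0.35, 0.34 and 0.27. None of the 10 genes passed in that fit, against 0.112% of all tested genes. The values of the short genes were 0.50 for mespba, 0.40 for tcf15, 0.10 for ripply2, 0.03 for mespbb and −0.10 for mespab, each lower than before the step. With both the length trend removed and morphant 2 left out, mespaa (1.06, adjusted p = 0.020) and tbx18 (1.41, adjusted p = 0.034) passed by edgeR, in a fit where 3.17% of all tested genes passed as higher and 5.75% in either direction, and mespba did not (0.69, adjusted p = 0.077).

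**Figure D4:**
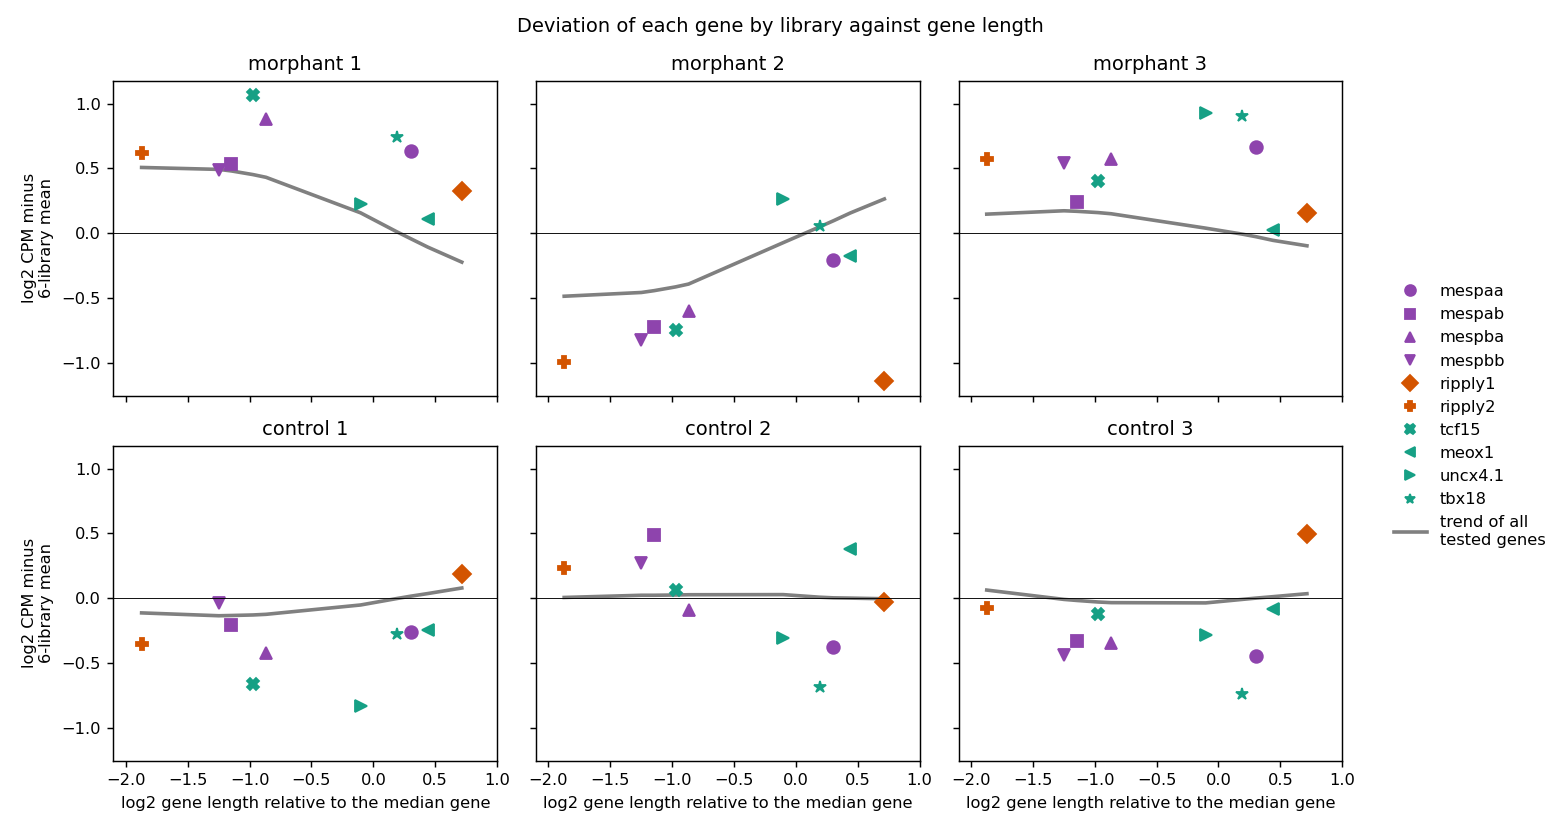
Deviation of log2 CPM from the 6-library mean against log2 gene length relative to the median gene, 1 panel per library, with mesp genes in purple, ripply genes in orange and the other 4 genes in green, and a grey line for the trend of all tested genes, drawn through its values at the lengths of these genes. The line slopes down in morphants 1 and 3 and up in morphant 2, and ripply1 lies at −1.14 in morphant 2 where the line is at 0.26.

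Ratios between genes within a library do not depend on how libraries are scaled, and 7 were compared. They still carry the length trend of each library where the genes differ in length. At the length of tcf15 that trend was 0.45, −0.41 and 0.16 in morphants 1, 2 and 3. At the length of meox1 it was −0.107, 0.156 and −0.055. No ratio was taken with the length trend removed, so its part in the ratios was not tested. The design of 3 against 3 libraries cannot give an exact permutation p below 0.10, and after Benjamini-Hochberg adjustment over the 7 ratios the lowest value was 0.28, so none passed. Summed mesp counts were 0.67, 0.85 and 0.67 times the summed ripply counts in morphants 1, 2 and 3, against 0.47, 0.66 and 0.34 times in controls 1, 2 and 3. All morphants lay above all controls, by a mean difference of 0.63 on the log2 scale (two-sided exact permutation p = 0.10, adjusted 0.28). Morphants 1 and 3 lay only just above control 2, and with FPKM in place of counts the difference was 0.32 and its exact permutation p was 0.40. Without control 3 the difference of the counts was 0.39. Between the paralogues mespaa and mespab the ratio was 0.66, 0.88 and 0.83 in morphants 1, 2 and 3, against 0.59, 0.34 and 0.57 in controls 1, 2 and 3. Again all morphants lay above all controls, with a mean difference of 0.69 on the log2 scale (two-sided exact permutation p = 0.10, adjusted 0.28), and 0.43 without control 2, the library with the lowest ratio.

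The other ratios overlapped between the groups. The ratio of mespba to mespbb was 0.64, 0.57 and 0.50 in morphants 1, 2 and 3, against 0.37, 0.38 and 0.52 in controls 1, 2 and 3 (mean log2 difference 0.44, exact permutation p = 0.20, adjusted 0.28). The ratio of ripply1 to ripply2 was 3.74, 4.14 and 3.44 in morphants 1, 2 and 3, against 6.66, 3.82 and 6.81 in controls 1, 2 and 3 (mean log2 difference −0.57, exact permutation p = 0.20, adjusted 0.28). The non-injected control 2 was therefore among the morphants for ripply1 to ripply2. The ratio of uncx4.1 to tbx18, the caudal over the rostral marker, was 0.77, 1.28 and 1.12 in morphants 1, 2 and 3, against 0.75, 1.45 and 1.54 in controls 1, 2 and 3. Its mean log2 difference was −0.20 (exact permutation p = 0.60, adjusted 0.60), smaller than the spread within either group (SD 0.38 in morphants and 0.58 in controls), and its sign changed without morphant 1. For tcf15 over meox1 the mean log2 difference was 0.51 (exact permutation p = 0.40, adjusted 0.47), with a ratio of 4.34, 1.51 and 2.91 in morphants 1, 2 and 3, against 1.68, 1.80 and 2.18 in controls 1, 2 and 3. Without morphant 1 that difference was 0.16, and without morphant 2 it was 0.92. The summed mesp and ripply counts over those of the other 4 genes differed by −0.48 (exact permutation p = 0.20, adjusted 0.28). With FPKM in place of counts that difference was −0.41 and its exact permutation p was 0.10, the lowest that this design can give.

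**Figure D5:**
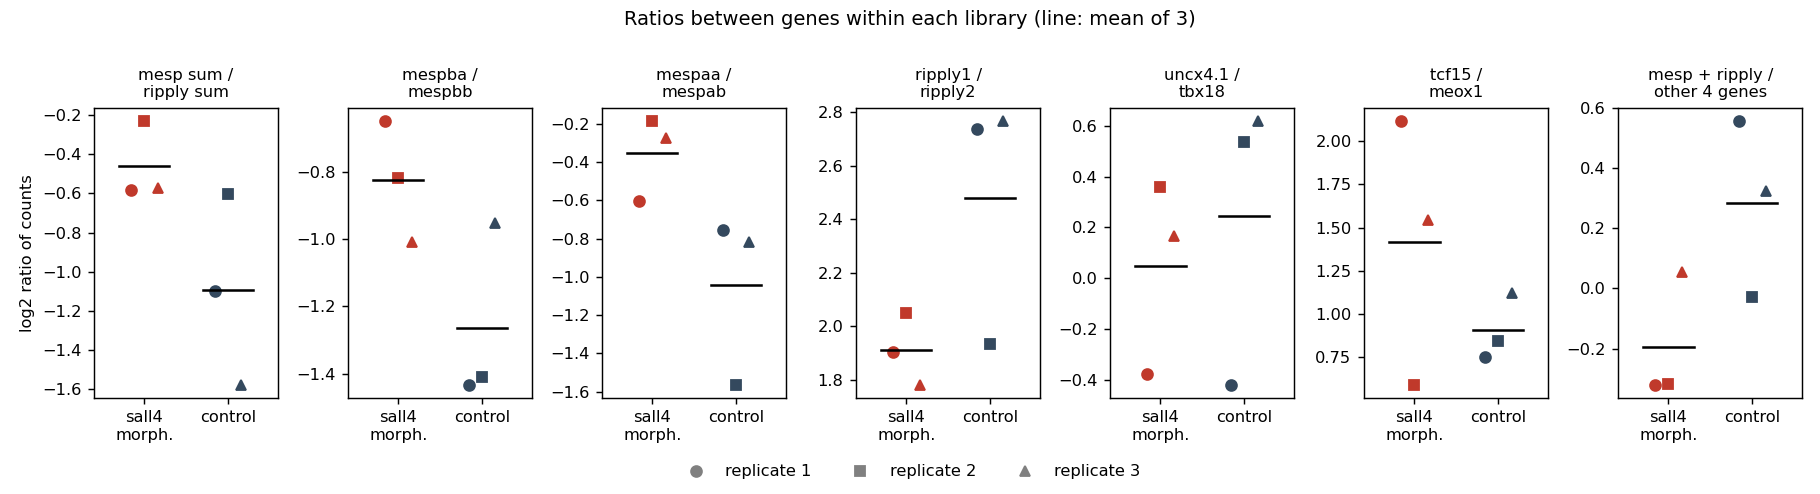
Log2 ratio of counts between genes or gene sums within each library, for sall4 morphants (red, left) and controls (dark blue, right) in 7 panels, each with its own axis, with a line for the mean of 3 libraries. Morphants lie above controls without overlap for mesp over ripply and for mespaa over mespab, and the groups overlap in the other 5 panels.

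Among themselves the 10 genes were compared by the root mean square difference of their centred log2 CPM over the 6 libraries, for all 45 pairs, which ranged from 0.18 to 0.85 with a median of 0.46. The closest pair was mespab and mespbb (0.18), which lie side by side on 1 chromosome with 0 protein-coding genes between them in the RefSeq gene table (GRCz12tu), where all 10 symbols were found. The other such neighbours, mespaa and mespba, differed by 0.24. The paralogues mespaa and mespab, on different chromosomes, differed by 0.45, and ripply1 and ripply2 by 0.40. Across roles, mespba and tcf15 differed by 0.19 and mespaa and tbx18 by 0.23. The widest pair was ripply1 and tbx18 (0.85). Some close pairs were also alike in length relative to the median gene. These were mespab and mespbb (0.45 and 0.42), mespba and tcf15 (0.55 and 0.51), and mespaa and tbx18 (1.23 and 1.14). The neighbours mespaa and mespba were not alike in length (1.23 and 0.55). The distances were taken without removing the length trend, and the part of length or of chromosomal position in them was not tested.

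The same measure was taken from the mean profile of the 6 mesp and ripply genes to 11479 other genes whose average log2 CPM was 1 or more. Among the nearest were rpl11 (0.067), C11H1orf50 (0.072), rps7 (0.079) and C25H12orf73 (0.081), against a median of 0.59 over all genes ranked. The lengths of these 4 were 0.29 to 0.49 of the median gene. To the mean profile of tcf15, meox1, uncx4.1 and tbx18 the nearest were mrto4 (0.069), mt-nd4l (0.087), cyb5b (0.093), tmem41aa (0.096) and rpp40 (0.097), against a median of 0.56, and their lengths were 0.15 to 0.88 of the median gene. Individual members stood farther from their own profile, from 0.15 for mespbb and ripply2 to 0.39 for ripply1.

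The surrounding gene programme was followed in 5 further lists, in which 0 genes passed by edgeR over all genes. Of 19 other genes of the anterior presomitic mesoderm and segment borders, all tested, 8 had a log2 fold change above 0 and the median was −0.02, with 5 at an unadjusted p under 0.05, against 9.66% of all tested genes. The smallest p belonged to aldh1a2, which makes retinoic acid, at 26.7, 16.7 and 33.4 CPM in morphants 1, 2 and 3, against 65.7, 40.9 and 71.2 CPM in controls 1, 2 and 3 (log2 fold change −1.21, SE 0.35, adjusted p = 0.35 by edgeR). Next was the ephrin ligand gene efna1b, at 179.0, 113.1 and 143.3 CPM in morphants 1, 2 and 3, against 59.3, 88.6 and 86.3 CPM in controls 1, 2 and 3 (0.89, SE 0.29, adjusted p = 0.40 by edgeR). The Eph receptor gene epha4b had a log2 fold change of −1.14 (adjusted p = 0.40 by edgeR, SE 0.39). For these 3, named for their small p, the groups did not overlap. Of the 19 genes, 2 had all morphants above all controls and 4 all below, against 7.77% and 9.18% of all tested genes.

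The activator of the mesp and ripply genes, tbx6, was chosen after its values were seen. It stood at 1840, 1131 and 1528 CPM in morphants 1, 2 and 3, against 2263, 1972 and 2375 CPM in controls 1, 2 and 3. Every morphant lay below every control, against 9.18% of all tested genes, and tbx6 was among the 4 such genes of the 19 above. The log2 fold change was −0.56 (SE 0.28, 95% interval −1.21 to 0.10, edgeR adjusted p = 0.57). It was −0.41 without morphant 2 and −0.23 with the length trend removed as well. Like 6 of the 10 genes, tbx6 was lowest of all 6 libraries in morphant 2.

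Of 16 genes of the segmentation clock and its Notch partners, 6 had a log2 fold change above 0 and the median was −0.06. The Notch feedback gene nrarpb stood at 19.8, 20.0 and 20.8 CPM in morphants 1, 2 and 3. In controls 1, 2 and 3 it stood at 39.5, 33.7 and 45.8 CPM (log2 fold change −0.97, SE 0.26, adjusted p = 0.29 by edgeR). It was the only gene of the 16 without overlap, against 7.77% of all tested genes with all morphants above and 9.18% with all below. The clock gene her11 stood at 107.2, 36.3 and 103.6 CPM in morphants 1, 2 and 3, against 36.5, 54.4 and 47.2 CPM in controls 1, 2 and 3 (0.84, SE 0.42, adjusted p = 0.57 by edgeR). As in mespba and mespbb, morphants 1 and 3 lay above all controls, but morphant 2 was level with control 1, the lowest control. The Notch-modifying glycosyltransferase gene lfng, a member of this list and of the list before, had a log2 fold change of −0.45 (adjusted p = 0.60 by edgeR, SE 0.27).

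Of 12 tested genes of the posterior presomitic mesoderm and tailbud, 9 had a log2 fold change above 0, the median was 0.20, and 0 had non-overlapping groups, against 7.77% of all tested genes with all morphants above all controls and 9.18% with all below. The smallest p belonged to cdx1a (log2 fold change 0.36, SE 0.29), tbxta (−0.28, SE 0.27) and tbx16l (0.28, SE 0.29), with edgeR adjusted p-values of 0.67, 0.70 and 0.73.

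Among 18 tested genes of the dermomyotome and sclerotome, the compartments that somites give rise to, 9 had a log2 fold change above 0 and the median was −0.03. The mesenchymal factor gene twist3 was scarce, at 0.26, 0.27 and 0.57 CPM in morphants 1, 2 and 3, against 2.66, 1.57 and 1.20 CPM in controls 1, 2 and 3. Its log2 fold change was −2.24 (SE 0.54, adjusted p = 0.24 by edgeR), and DESeq2 called it (adjusted p = 0.031), the only gene of these 5 lists that it called. The T-box gene tbx15, at 1.47 (SE 0.50, adjusted p = 0.40 by edgeR), and the homeobox gene six1a, at 1.17 (SE 0.44, adjusted p = 0.45 by edgeR), had all morphants above all controls. Of the 18 genes, 2 had all morphants above and 1 all below, against 7.77% and 9.18% of all tested genes. Both tbx15 and six1a were scarce as well. In morphants 1, 2 and 3 tbx15 had 26, 25 and 18 counts, against 9, 9 and 14 in controls 1, 2 and 3. For six1a these were 61, 53 and 87 counts, against 18, 37 and 64. The length of tbx15 was 4.25 times that of the median gene.

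Of 17 tested myogenic genes 11 had a log2 fold change above 0, with a median of 0.17. The actin gene actc1b stood at 156.6, 48.1 and 133.4 CPM in morphants 1, 2 and 3, against 31.3, 46.6 and 47.0 CPM in controls 1, 2 and 3 (log2 fold change 1.44, SE 0.44, adjusted p = 0.37 by edgeR). Morphant 2 was again close to the controls, as for mespaa. The intermediate filament gene desma stood at 2.04, 9.20 and 5.18 CPM in morphants 1, 2 and 3, against 19.5, 10.1 and 14.6 CPM in controls 1, 2 and 3 (−1.42, SE 0.53, adjusted p = 0.45 by edgeR). The slow myosin gene smyhc1 was highest in morphant 2, at 5.85, 68.3 and 15.4 CPM in morphants 1, 2 and 3, against 2.80, 13.8 and 4.45 CPM in controls 1, 2 and 3 (2.09, SE 0.92, adjusted p = 0.52 by edgeR), and without morphant 2 its value was 0.60. Without morphant 2, edgeR called 3 of the 10 genes described here, 2 genes of the anterior list, 3 clock and Notch genes, 3 myogenic genes and 0 in each of the other lists, where 8.46% of all tested genes passed.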

How the data were processed

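Polyadenylated RNA of 6 libraries was measured. The deposited raw counts are whole numbers per Ensembl gene. Each of the deposited FPKM values is the count over a length and a library scale, as checked from their ratios. Per the submitters' processing notes, STAR 2.7.10a and DESeq2 1.38.3 were used with build GRCz11, roles not stated. No source used here names the counting tool, its strand setting or how reads shared by paralogues were counted.

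The 17803 genes passing filterByExpr were TMM-scaled and tested with the quasi-likelihood F test of edgeR 4.0.16 (R 4.3.3), by group alone, with two-sided p-values adjusted by Benjamini-Hochberg over all tested genes. CPM uses TMM-scaled library sizes. A standard error is the log2 fold change over the square root of F. Relative length is counts over FPKM. The length trend is a lowess curve per library (span 0.3) on log2 CPM (prior count 2). Ratios add 0.5 counts per gene and use two-sided exact permutation tests (scipy 1.17.1). Alternatives included DESeq2 1.42.0 and limma 3.58.1. The fits were tested on simulated data, and figures drawn with matplotlib 3.10.9.

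The members, lists and tests were chosen with earlier results of these data known. Named genes are the 10 members, sall4, up to 3 genes of smallest p per list and 5 per likeness profile, of which 1 is not reported here. Same-numbered libraries were not treated as pairs, since their deviations correlated at −0.29, −0.10 and 0.16.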

Additional observations from a re-analysis of the deposited data

How the results depend on the processing

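Of 18 other fits, that with non-injected controls only and that without control 1 were the same fit under both names. Over all of them, the log2 fold changes of mespaa, mespba, mespbb, ripply2, tcf15, uncx4.1 and tbx18 stayed above 0. The count of the 10 genes called stayed 0 except without morphant 2 (3 genes) and with the length trend also removed (2 genes). Leaving out each library in turn gave 0 to 3. The log2 fold change of mespab was −0.081 with library totals, −0.027 with non-injected controls only, −0.10 with the length trend removed and −0.18 to 0.38 with each library left out. That of meox1 was 0.23 against the scrambled control only, 0.12 with the length trend removed and morphant 2 left out, and −0.18 to 0.15 with each library left out. For ripply1 it was 0.21 with the length trend removed and morphant 2 left out. Against the scrambled control only, the log2 fold changes were 0.67 for mespaa, 1.36 for uncx4.1 and 0.89 for tbx18. Against non-injected controls only, they were 0.83, 0.82 and 1.35. For the ratio of uncx4.1 to tbx18, the mean log2 difference, morphant minus control, ranged from −0.53 to 0.018 with each library left out. The other 6 ratios kept their direction. The cause of these shifts was not tested.

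Of all genes, 5 passed in the fit reported. The count was 1 with library totals, 28 with no filter, 3 with the stricter filter, 334 by DESeq2, 11 on log2(FPKM + 1) and 16 on log2(FPKM + 0.1). It was 0 against the scrambled control only, 0 against non-injected controls only, 20 with the length trend removed, 1042 with morphant 2 left out as well, and 0 to 1534 with each library left out. With the replicate number as a block it was 0, and 0 of the 10 genes were called. Samples shared only a number. Where the scrambled control stood alone, its spread was taken from the morphants. All tested genes had a median of 0.12 as reported and −0.04 without morphant 2. Counts below 100 in some libraries limit the precision for uncx4.1 and tbx18.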

Other observations

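A further paralogue in each of 2 families lay outside the gene set, and both were chosen after their values were seen. The gene uncx (ENSDARG00000102976), the paralogue of uncx4.1, had 17, 38 and 52 counts in morphants 1, 2 and 3, against 50, 82 and 75 counts in controls 1, 2 and 3. Per library this was 1.12, 1.49 and 2.12 CPM in morphants, against 2.41, 4.03 and 1.83 CPM in controls, so the groups overlapped through morphant 3 and control 3. Its log2 fold change was −0.79 (SE 0.45, 95% interval −1.81 to 0.23, adjusted p = 0.59 by edgeR), against 0.98 for uncx4.1; the difference between these was not tested. The gene ripply3 (ENSDARG00000036974) was near the limit of detection, at 12, 22 and 31 counts in morphants 1, 2 and 3, against 14, 14 and 16 counts in controls 1, 2 and 3. Per library this was 0.788, 0.861 and 1.265 CPM in morphants 1, 2 and 3, against 0.676, 0.689 and 0.391 CPM in controls 1, 2 and 3. All morphants thus lay above all controls, against 7.77% of all tested genes. The log2 fold change of ripply3 was 0.76 (SE 0.47, adjusted p = 0.61 by edgeR).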
